A study of Mus musculus with 6 samples.

Results

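Shared H3K27ac regions of stable width are stretches of the mouse genome that carried the mark at every stage of muscle cell differentiation examined here, over a similar length before and after. Peaks of the 3 lists (proliferation, 36 h and 72 h) that overlapped by at least 1 bp were merged into 112926 regions, and 28908 of these held a peak in all 3 lists. A shared region was a member when the length under its 72 h peaks was more than 0.5 and less than 2 times the length under its proliferation peaks. There were 21675 members, which is 75% of the shared regions (95% Wilson interval 74.5% to 75.5%, counting error only) and 19.2% of all merged regions. Of the other shared regions, 6307 (21.8%) reached at least 2 times the proliferation width at 72 h and are called widening, and 926 (3.20%) had at most 0.5 times that width and are called narrowing.

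The series measured H3K27ac by chromatin immunoprecipitation and sequencing (ChIP-seq) in C2C12, a line of mouse myoblasts that stops dividing and fuses into myotubes in culture. The 3 groups were cells labelled as in proliferation, after 36 h of differentiation and after 72 h of differentiation, all from the same line and with no other treatment named in the labels. Each stage had 1 H3K27ac library, built from the pooled DNA of 4 ChIP assays that used 1.2 µg of antibody each, and 1 input library, whose own file was not used here. No test between stages was therefore possible, and every difference below is a difference between single libraries.

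H3K27ac, acetylation of lysine 27 of histone H3, is laid down by the acetyltransferases p300 and CBP and removed by histone deacetylases. It is found on the nucleosomes that flank active promoters and enhancers, and a broad acetylated stretch usually covers several neighbouring nucleosomes. In differentiating myoblasts, muscle enhancers gain the mark while enhancers and promoters of genes used at every stage can keep it.

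The lists held 57101, 89717 and 97144 peaks for proliferation, 36 h and 72 h, covering 31.3, 56.0 and 63.7 Mb. The sources used here give no read totals. Fragment numbers recovered from the deposited fold and p-values put the ChIP depth at 1.20 times that of proliferation for 36 h and 1.1 times for 72 h. The part of depth in peak number and peak width was not tested.

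The widths of proliferation and 72 h chose the members, so these 2 widths are a description. The median member had 799 bp under proliferation peaks (interquartile range 458 to 1356), 872 bp at 36 h (477 to 1549) and 912 bp at 72 h (519 to 1594). The 72 h width was 1.16 times the proliferation width in the median member (interquartile range 0.95 to 1.44). At 72 h, 14960 members (69.0%) were wider than in proliferation, beside 73.6% of all shared regions. Stable thus means within the 2-fold limits and not of equal length. All 3 widths lay within 1.1 times of each other in 1505 members (6.94%) and within 1.5 times in 11453 (52.8%).

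The limits fell in a continuous range of widths. On chromosome 3 from 55204484 to 55206012 (mm9, as for every position here, counted from 1), a member just inside the lower limit had 1529 bp in proliferation and 765 bp at 72 h. Just outside it, a region on chromosome 4 from 125807264 to 125809159 had 1862 and 931 bp. At the upper limit, the member on chromosome 1 from 167122284 to 167125237 had 1442 and 2883 bp. Beyond it, the region on chromosome 7 from 26491305 to 26494361 had 1395 and 2791 bp. Membership near a limit thus rested on a few bp of peak length.

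The 36 h width was not part of the rule, although a 36 h peak was required and the comparison with proliferation shares its denominator with the rule. The median member was 1.14 times as wide at 36 h as in proliferation (interquartile range 0.895 to 1.43), and 1.02 times as wide at 72 h as at 36 h (0.880 to 1.22). In 18524 members (85.5%) the 36 h width lay within the same 2-fold limits of both other stages, beside 68.6% of all shared regions, of which the members are the larger share. The same held for 17.2% of widening and 24.0% of narrowing regions. The further apart the proliferation and 72 h widths, the fewer 36 h widths can lie within the limits of both. The rule therefore partly set these differences between classes in advance. Of the members, 1115 (5.14%) were at 36 h at least 2 times as wide as in proliferation, beside 20.0% of all shared regions. At most 0.5 times the proliferation width was found in 1338 members (6.17%), close to the 6.01% of all shared regions.

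**Figure D1:**
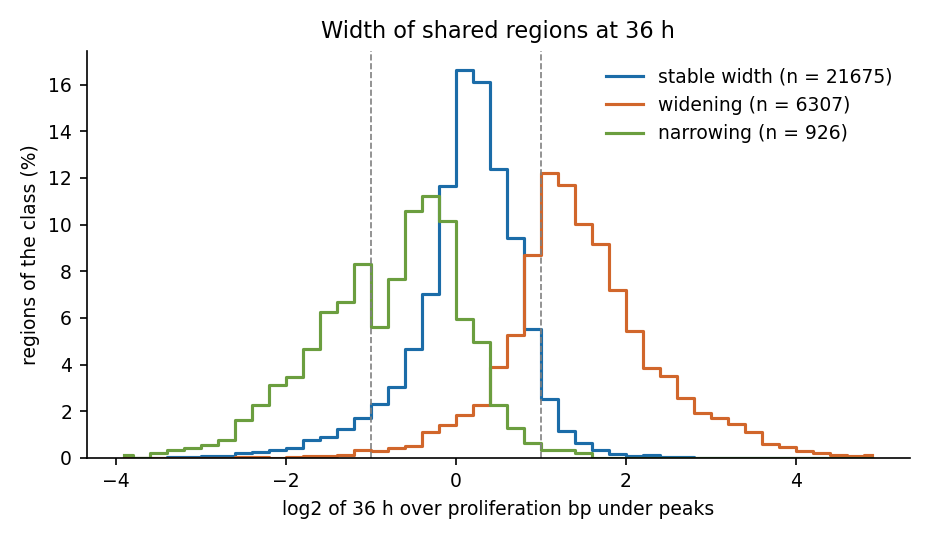
Distribution of the log2 ratio of bp under 36 h peaks to bp under proliferation peaks, in percent of the regions of each class per 0.2-wide step, for shared regions of stable width (blue), widening (orange) and narrowing (green) regions, with dashed lines at 0.5 and 2 times. Most members lie between the lines, and the medians of the 3 classes are 1.14, 2.63 and 0.634 times.

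Between the later stages, 1387 members (6.40%) were at least 2 times as wide at 72 h as at 36 h, beside 7.14% of all shared regions. At most 0.5 times the 36 h width was left at 72 h in 565 members (2.61%, beside 3.35%). Width followed no single order over the stages. It was greatest at 36 h in 8499 members (39.2%, beside 36.8% of all shared regions) and least at 36 h in 5983 (27.6%, beside 22.3%). It increased from stage to stage in 5586 (25.8%, beside 33.3%) and decreased from stage to stage in 1517 (7.0%, beside 7.29%).

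Regions that were wide in proliferation were more often members. The share of shared regions that were of stable width was 39.2% among the 3922 with up to 250 bp under proliferation peaks, 79.9% among the 8766 with over 500 and up to 1000 bp, and 97.7% (386 of 395) among those with over 4000 bp. The proliferation width is the rule's own denominator, so this gradient supports nothing by itself. Grouped by the 36 h width, which the rule did not use, the share lay between 71.0% (over 4000 bp) and 76.6% (over 250 and up to 500 bp). The other classes did differ with the 36 h width, in opposite directions. From up to 250 bp to over 4000 bp, the widening share went from 14.8% to 28.9% and the narrowing share from 8.95% to 0.111%. Grouped by 36 h summit signal, a measure of peak height described below, the stable share was 72.8% up to 10 times the genome background. It was 71.8% over 10 and up to 20 times, and 86.7% above 60 times (721 regions). Between the lowest and highest of these groups, the widening share went from 17.8% to 13.2% and the narrowing share from 9.48% to 0.139%.

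**Figure D2:**
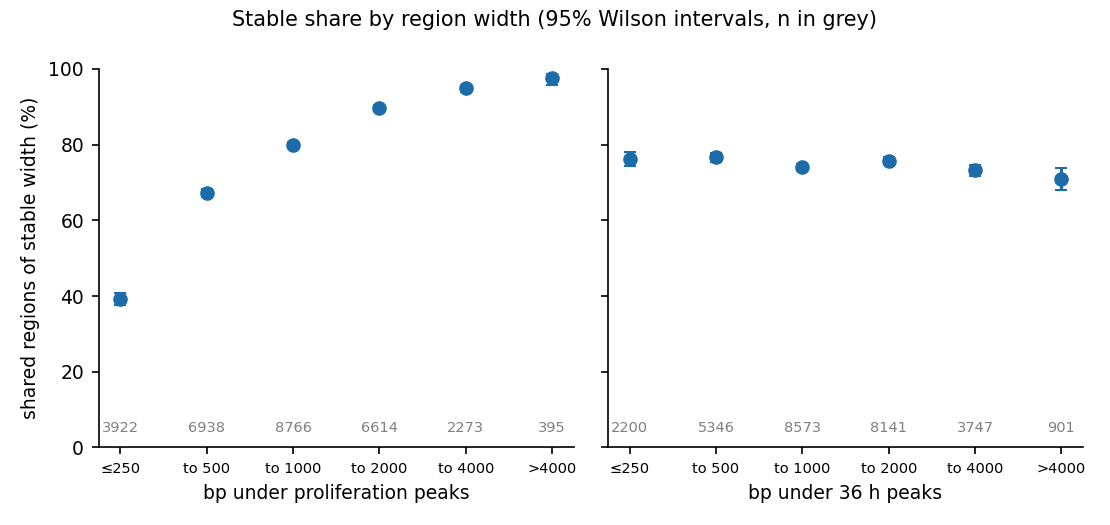
Percent of shared regions that are of stable width, by bp under proliferation peaks (left) and by bp under 36 h peaks (right); bars are 95% Wilson intervals for counting error and grey numbers are the shared regions in each bin. The share goes from 39.2% to 97.7% on the left, where the axis is part of the rule, and stays between 71.0% and 76.6% on the right.

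The members took up much of each peak list. They held 57.6% of the proliferation peaks, 32.4% of the 36 h peaks and 28.7% of the 72 h peaks. In length these were 23.3, 26.3 and 27.1 Mb, or 74.3%, 46.9% and 42.6% of the length of each list. Of the 10% of peaks with the highest deposited −log10 q, members held 5360 of 5728 in proliferation (93.6%), 6564 of 9060 at 36 h (72.5%) and 6682 of 9754 at 72 h (68.5%). Of peaks wider than 2 kb, they held 96.6%, 65.0% and 57.7%. Proliferation and 72 h widths were used by the rule, so for these lists the shares of wide peaks are a description only. Widening regions also held more of the later strong peaks than of all peaks, with 10.7% of the 36 h peaks and 17.0% of the top 10%, and 8.44% and 17.7% at 72 h.

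The deposited fold enrichment, the authors' ratio of ChIP to background at the summit, was compared only within a list. The strongest peak of the median member had a fold of 7.73 in proliferation, above 74.6% of that list. At 36 h it was 9.73, above 78.3% of the list, and at 72 h 10.1, above 79.8%. The median member thus held a high rank at every stage, but setting a region's strongest peak against all single peaks favours a high rank. In all shared regions the median folds were 6.95, 9.42 and 9.94 from proliferation to 72 h. At 36 h and 72 h these were near the members' values, so the high rank there was not particular to members. For comparison, the median widening region ranked above 43.1% of the proliferation list, 77.0% of the 36 h list and 80.1% of the 72 h list. The median narrowing region ranked above 69.8%, 47.6% and 35.1%.

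Members, like shared regions in general, were built of few peaks. In 10850 members (50.1%) each list had exactly 1 peak, close to the 49.0% of all shared regions and beside 43.3% of widening and 62.6% of narrowing regions. Exactly 1 peak was present in 65.3% of members in proliferation, 74.3% at 36 h and 77.6% at 72 h, while 4 or more peaks were found in 3.56%, 1.62% and 0.997%. The 10850 single-peak members had median widths of 506, 555.5 and 571.5 bp at the 3 stages in turn. The others had 1215, 1377 and 1442 bp.

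Peaks that were separate in proliferation were often 1 peak later. Peak number was lower at 36 h than in proliferation in 5131 members (23.7%, beside 21.3% of all shared regions) and higher in 2686 (12.4%, beside 15.2%). At 72 h it was lower than in proliferation in 5484 (25.3%, beside 23.7%) and higher in 2269 (10.5%, beside 11.6%). These shares were close to those of all shared regions. Of the 7527 members with at least 2 proliferation peaks, 54.6% had 1 peak at 36 h and 60.3% had 1 at 72 h. In the opposite direction, of the 5578 members with at least 2 peaks at 36 h, 38.7% had 1 in proliferation. Picking members by at least 2 peaks in 1 list favours fewer peaks in another. These last shares are not compared with all shared regions here, so they are not a trait of members.

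Gaps between proliferation peaks of a member were short. There were 11197 such gaps with a median of 130 bp (interquartile range 75 to 206), less than the 147 bp of DNA wound on 1 nucleosome. They summed to 1.96 Mb, of which 84.3% lay under 36 h peaks and 88.5% under 72 h peaks. The 7395 gaps at 36 h had a median of 107 bp, and 66.8% of their length lay under proliferation peaks and 86.7% under 72 h peaks. By construction every base of a gap lies under a peak of at least 1 other list, so only the difference between the lists carries information. Mean peak length in members was 708, 903 and 974 bp from proliferation to 72 h.

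The member with the most proliferation peaks, named after its values were seen, shows this pattern. It lies on chromosome 9 from 56712108 to 56721078, and had 15 peaks in proliferation, 10 at 36 h and 1 at 72 h. The length under peaks was 6425, 7086 and 8954 bp, so the ground of a row of short proliferation peaks lay under 1 long peak at 72 h.

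The largest members were many kb long. The member with the most length under 36 h peaks lies on chromosome 15 from 85494628 to 85520867. From proliferation to 72 h it had 23845, 26140 and 25528 bp, in 4, 3 and 5 peaks. On chromosome 2 from 173078450 to 173103412, 17692 bp in 13 proliferation peaks compared with 24675 bp in 4 peaks at 36 h and 24464 bp in 4 peaks at 72 h. The other 3 of the 5 longest lie on chromosome 15 from 76979223 to 76997488 and from 76021946 to 76040125, and on chromosome 3 from 88291593 to 88308571. Each of these had 6 to 9 peaks in proliferation and 2 to 4 at the later stages. All 5 of the longest members had fewer peaks at 36 h than in proliferation and more length under them. They were picked for their length at 36 h, so the choice itself favoured more length at that stage.

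**Figure D3:**
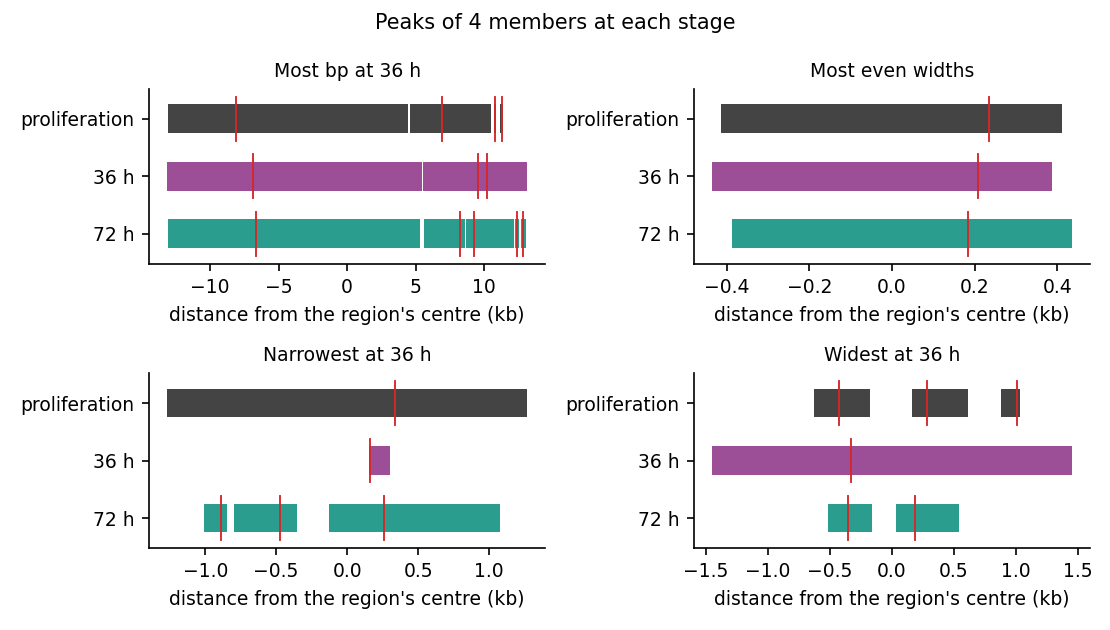
Peaks (bars) and their summits (red lines) of 4 members in each list, by distance from the region's centre in kb; the longest at 36 h, the most even in width, the narrowest and the widest at 36 h relative to the other stages. The widths of the narrowest were 2533, 150 and 1813 bp and those of the widest 1055, 2898 and 867 bp.

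Most of the acetylated length of a member was the same bases at each stage. In the median member 68.2% of the bases under a proliferation or 36 h peak were under both, and 77.9% for 36 h and 72 h. The medians of all shared regions were 61.3% and 76.7%, so the second was close to that of members. Of the bases under proliferation peaks, 94.3% were also under 36 h peaks and 95.6% under 72 h peaks. Of the bases under 36 h peaks, 79.7% were under proliferation peaks. In widening regions the bases shared by proliferation and 36 h were 33.3% and in narrowing regions 50.9%. For 36 h and 72 h they were 76.2% in widening regions, near the members' value, and 40.04% in narrowing regions. The share of proliferation bases also under 36 h peaks was not particular to members, with medians of 100% in widening, 57.8% in narrowing and 96.1% in all shared regions. For proliferation bases under 72 h peaks, the contrast of the rule, the medians were 100%, 36.6% and 98.4% in the same order. Peaks of proliferation and 36 h shared no base in 71 members, which were joined only through another peak.

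Summit position was not used by the rule. The summit of the strongest 36 h peak lay a median of 69 bp from that of the strongest proliferation peak (interquartile range 27 to 182), and the 72 h summit lay 59 bp from the 36 h summit (23 to 149). Both medians are under the length of 1 nucleosome. In 70.6% of members the proliferation and 36 h summits were within 147 bp, close to the 68.5% of all shared regions. The share was 61.6% in widening and 64.6% in narrowing regions. All 3 summits were within 147 bp of each other in 12374 members (57.1%), beside 54.6% of all shared regions. The share was 47.3% in widening and 47.2% in narrowing regions.

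In 1965 members (9.07%, beside 9.94% of all shared regions) the proliferation and 36 h summits were more than 500 bp apart. The share was 13.5% in widening and 6.26% in narrowing regions. A distance can only be as long as the region, and the median region spanned 1092 bp in members, 1272 bp in widening and 799 bp in narrowing regions. The longest distance, 12075 bp, was in the member on chromosome 15 from 76979223 to 76997488. There the strongest peak of proliferation and that of 36 h were different peaks.

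**Figure D4:**
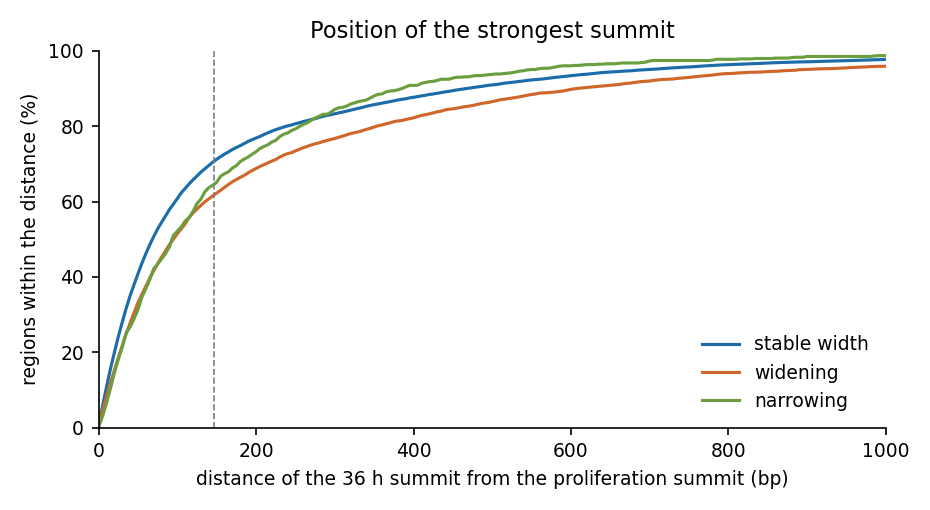
Cumulative percent of regions whose strongest 36 h summit lies within a given distance (bp, horizontal axis) of the strongest proliferation summit, for the 3 classes of shared regions, with a dashed line at 147 bp. At that line the curves stand at 70.6% for stable width, 61.6% for widening and 64.6% for narrowing.

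To compare the height of the mark between stages, the ChIP pileup at the summit of the strongest peak was recovered in fragments and divided by the genome background of its library. This summit signal had a median over members of 22.6 times background in proliferation, 20.04 at 36 h and 23.6 at 72 h. The fragments behind the median were 34, 36 and 39. Widening regions had 13.3, 18.9 and 23.6, and narrowing regions 18.6, 11.1 and 10.3. The classes were split by the 72 h to proliferation width ratio, and width and height come from the same pileup, so these class differences are a description that the rule partly sets.

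**Figure D5:**
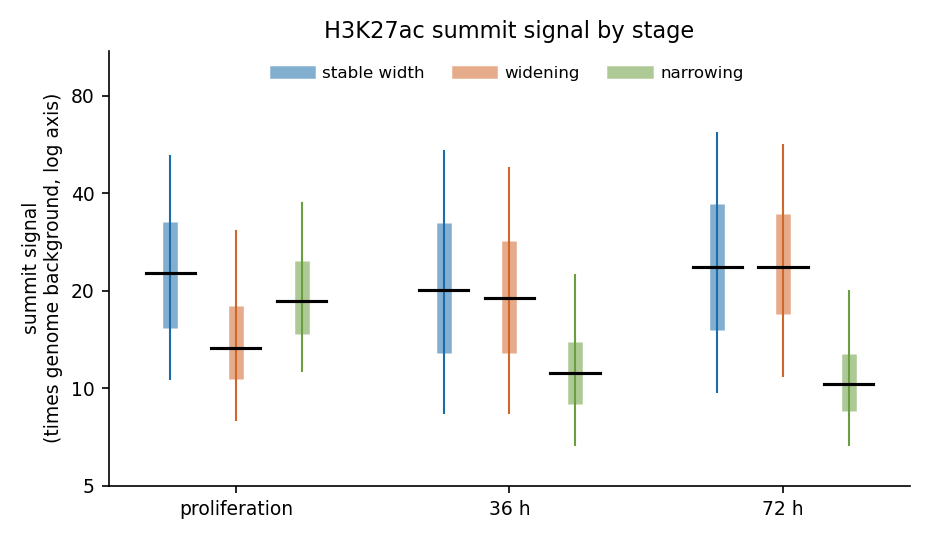
Summit signal in multiples of the genome background (log axis) for each stage and class of shared region; black lines are medians, boxes the interquartile range and thin lines the 5th to 95th percentile over regions. Median members stand at 22.6, 20.04 and 23.6, while the medians of widening regions go from 13.3 to 23.6 and of narrowing regions from 18.6 to 10.3.

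Region by region, summit signal at 36 h was 0.945 times that of proliferation in the median member (interquartile range 0.701 to 1.19). At 72 h it was 1.14 times that of 36 h (0.953 to 1.39) and 1.06 times that of proliferation (0.828 to 1.34). The side on which 36 h fell depended on the scaling. With fragments not divided by the genome background the median was 1.13 times, a shift of 0.26 on the log2 scale for 36 h and 0.13 for 72 h, and with lists of equal number it was 1.001 times. A median difference between proliferation and 36 h is therefore not established for members.

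At 36 h, 345 members (1.59%) had at least 2-fold higher summit signal than in proliferation, beside 5.46% of all shared regions. At least 2-fold lower signal was found in 1848 (8.53%), beside 7.68%. Without the scaling to background these were 1117 (5.15%) and 929 (4.29%). The 95% counting interval of the fragment ratio lay wholly on that side of 1 in 344 of the 345 and in 1793 of the 1848. Among all shared regions it did so in 1572 of 1578 (5.44% of all) and in 2152 of 2221 (7.44%). The near-complete share was thus not particular to members. Picking regions by a 2-fold ratio largely set it in advance. From 36 h to 72 h, 1135 members (5.24%) were at least 2-fold higher, beside 5.59%, and 107 (0.494%) at least 2-fold lower, beside 0.550%. For 72 h against proliferation, the contrast of the rule, the numbers were 800 higher (3.69%, beside 9.96%) and 572 lower (2.64%, beside 3.19%). Most members were within 2-fold in each of these comparisons.

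The local background, which MACS2 normally takes from the input around a peak, differed between libraries. Its median at members was 1.98 times the genome background in proliferation, 1.08 at 36 h and 1.32 at 72 h. In widening regions it was 1.75, 1.09 and 1.22. The genome background itself was 1.01, 1.25 and 1.08 fragments, so all these multiples stand for few fragments. It enters the deposited fold, and its part in the ranks given above was not tested. With the local background taken off the pileup, the median 36 h to proliferation ratio of members was 0.970.

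The 5 members with the highest 36 h fold had tall summits at every stage. The first lies on chromosome 2 from 164735524 to 164738381 and had 1 peak in each list, of 1624, 2338 and 2858 bp. Its summit held 114, 165 and 163 fragments from proliferation to 72 h, or 75.9, 91.9 and 98.8 times the genome background. The 36 h to proliferation ratio was 1.21 (95% counting interval 0.948 to 1.55), so the difference was within counting error. On the same chromosome from 164703664 to 164705410, a member with 1 peak in each list had 1122, 1510 and 1723 bp and a summit signal of 100.5, 85.7 and 98.2.

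On chromosome 15 from 80083745 to 80088164, 3446, 4362 and 4395 bp were covered, and the summit held 166, 205 and 205 fragments (110.5, 114 and 124 times background). The 205 fragments at 36 h were the most of any member. On chromosome 4 from 133368657 to 133371208, the widths were 2325, 2552 and 2252 bp and the signal 73.2, 88.0 and 86.7. The member on chromosome 17 from 34256451 to 34261040 had 4512, 4481 and 4590 bp and a signal of 89.2, 87.4 and 108. For all 5 of these members the counting interval of the 36 h to proliferation ratio included 1.

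The 3 single-peak members with the most even widths had nearly the same peak length at each stage. On chromosome 5 from 141179915 to 141180784 the peaks were 825, 823 and 823 bp long, with 73, 69 and 77 fragments at the summit. The summits lay 27 bp apart between proliferation and 36 h and 23 bp apart between 36 h and 72 h. On chromosome 1 from 180928250 to 180930156 the peaks were 1875, 1872 and 1877 bp long with 63, 52 and 55 fragments. Even length did not mean a fixed summit there, since the 72 h summit lay 1301 bp from the 36 h summit.

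The third of these, on chromosome X from 123302063 to 123306846, had 4755, 4777 and 4774 bp and 85, 93 and 92 fragments. Its local background was 7.91, 3.99 and 8.31 times the genome background. A high recovered local background accompanied this member, and its part in the even width was not tested. A local background of at least 5 times the genome background in all 3 lists was found in 14 of the 21675 members. This count is not compared with other shared regions here.

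A small group of members was much narrower at 36 h than at both other stages. In 964 members (4.45%, beside 3.62% of all shared regions) the 36 h width was at most 0.5 times that of both other stages. Their median widths were 802.5, 228 and 779 bp in stage order. The median summit signal was 18.6, 8.91 and 16.4 times background, which gives median ratios of 0.478 from proliferation to 36 h and 1.79 from 36 h to 72 h. Height and width were thus low together at 36 h in this group, which the 36 h width itself selected.

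The lowest of them relative to the other stages lies on chromosome 16 from 91968840 to 91971372. Its widths from proliferation to 72 h were 2533, 150 and 1813 bp. The strongest summit held 72, 16 and 42 fragments, and the 36 h to proliferation ratio of summit signal was 0.186 (95% counting interval 0.101 to 0.323). The 150 bp peak at 36 h is near the shortest peak length of the lists, 147 bp.

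On chromosome 13 from 12904721 to 12907259 the widths were 1706, 193 and 2415 bp, and the summits held 43, 17 and 70 fragments. The ratio was 0.331 (0.177 to 0.592) from proliferation to 36 h and 4.48 (2.61 to 8.13) from 36 h to 72 h. On chromosome 11 from 81928671 to 81930442 the widths were 1772, 160 and 1640 bp, with 45, 14 and 34 fragments and a ratio of 0.260 (0.132 to 0.483). In all 3 members the counting intervals lay below 1 for 36 h against proliferation and above 1 for 72 h against 36 h, while the spread between cultures is unknown. These members were picked for a low 36 h width, and width and height come from the same pileup. The choice itself thus favoured such intervals, which support nothing further.

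The opposite pattern was less common and the regions were short. In 290 members (1.34%, beside 1.18% of all shared regions) the 36 h width was at least 2 times that of both other stages, with medians of 227.5, 741.5 and 254 bp. The median summit signal of these members was 11.3, 13.9 and 10.9. The most extreme of at least 1000 bp lies on chromosome 2 from 108474461 to 108477358, with 1055, 2898 and 867 bp in 3, 1 and 2 peaks. Its summits held 27, 44 and 20 fragments, and its 36 h to proliferation ratio of 1.36 (0.826 to 2.29) was within counting error.

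On chromosome 11 from 8504078 to 8506148 the widths were 1098, 2071 and 658 bp, with 18, 37 and 11 fragments. On chromosome 19 from 44975686 to 44982203 they were 2359, 6466 and 3143 bp in 7, 2 and 6 peaks, with 29, 54 and 23 fragments. Each of these 3 members had fewer peaks at 36 h than at the other stages, over a greater length. The greater length was set by the way they were picked.

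Stable width, set by proliferation and 72 h, did not exclude a large difference in height at 36 h. In some such members the 36 h width also lay outside the 2-fold limits. The 6 members named next were chosen after the values were seen. They are the 3 with the highest lower bound and the 3 with the lowest upper bound of the 95% counting interval of the 36 h to proliferation ratio, so single members can have a more extreme ratio. On chromosome 3 from 86027603 to 86028923 a member had 666, 1257 and 1205 bp, within the limits, while its summit held 23, 108 and 97 fragments. Its signal of 15.3, 60.1 and 58.8 was 3.93 times higher at 36 h than in proliferation (2.49 to 6.46). On chromosome 17 from 56325121 to 56326890 the widths were 705, 1770 and 916 bp and the signal 13.3, 53.4 and 32.7. The signal ratio was 4.02 (2.46 to 6.87), and the 36 h width was 2.51 times that of proliferation. On chromosome 3 from 9173267 to 9174957 the widths were 869, 1691 and 1072 bp and the signal 12.6, 51.2 and 31.5. The signal ratio was 4.05 (2.45 to 7.03). The first of these had a like height at 36 h and 72 h, and the other two were highest at 36 h.

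In the other direction, the member on chromosome 3 from 107631926 to 107632671 had 746, 482 and 641 bp and 90, 19 and 38 fragments. Its signal was 59.9, 10.6 and 23.0, a 36 h to proliferation ratio of 0.177 (0.102 to 0.292). On chromosome 6 from 117386858 to 117388882 the widths were 1946, 160 and 1203 bp and the signal 39.3, 6.12 and 15.8. The signal ratio was 0.156 (0.0739 to 0.30), and the 36 h width was 0.0822 times that of proliferation. On chromosome 11 from 70010118 to 70011937 the widths were 1820, 195 and 1321 bp and the signal 54.6, 10.6 and 38.8. The signal ratio was 0.194 (0.111 to 0.322), and the 36 h width was 0.107 times that of proliferation. Local background in proliferation was 3.96 times the genome background of 1.01 fragments at the first and second of these. This is few fragments, and its part in their difference was not tested.

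Across the 21675 members, width and signal were related between stages, as a description with no test, since neighbouring regions share libraries and depth. On the log2 scale, width had a Pearson r of 0.837 and a Spearman rho of 0.844 between proliferation and 36 h, and 0.880 and 0.891 between 36 h and 72 h. Summit signal had 0.733 and 0.723 between proliferation and 36 h and 0.854 and 0.854 between 36 h and 72 h. The 36 h to proliferation ratio of width and that of signal had an r of 0.633 and a rho of 0.606. Width and height come from the same pileup, so these last values are not independent.

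Members, as shared regions in general, lay mostly near other shared regions. One was within 5 kb of 62.4% of members, close to the 61.1% of all shared regions. Where there was one, the nearest was itself of stable width for 10961 of 13533 members (81.0%), compared with 63.9% for widening and 77.7% for narrowing regions. Among all shared regions with such a neighbour, 76.6% were of stable width. A region gained in differentiation, that is one acetylated at both later stages but not before, lay within 5 kb of 27.5% of members. The same held for 48.7% of widening and 10.8% of narrowing regions. A region of proliferation alone lay within 5 kb of 18.3% of members, 5.42% of widening and 42.4% of narrowing regions. Members thus stood between the other classes in both kinds of neighbour. For these neighbours the classes are compared only with each other, and members are 75% of all shared regions.

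No other merged region lay within 5 kb of 2782 members (12.8%), compared with 10.1% of widening and 7.99% of narrowing regions. Here too the classes are compared only with each other, and members are 75% of all shared regions. These isolated members were not weak, with median widths of 899.5, 1068 and 1090 bp and a median summit signal of 24.6, 25.3 and 27.3. Their proliferation and 36 h summits lay a median of 51.5 bp apart. At the other end, 4699 members (21.7%) lay in a 36 h cluster with at least 10 kb under peaks, made by joining peaks within 12.5 kb of each other. This was below the 23.5% of all shared regions and the 31.0% of widening regions, and above the 15.6% of narrowing regions. Members in such clusters had median widths of 1151, 1388 and 1392 bp.

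Stable regions were spread over the genome. Their share of the shared regions lay between 72.2% and 77.4% on every chromosome with at least 100 shared regions, and was 75.1% on the X chromosome. A further 58 members lay on unplaced sequence.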

How the data were processed

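H3K27ac ChIP-seq peak lists of 3 C2C12 libraries were used, 1 library each for proliferation, 36 h and 72 h of differentiation. BWA, MACS2, deepTools and the mm9 build are named in the submitters' processing notes, and neither their versions nor their settings are given here. The deposited lists, 1 per library, are in the narrowPeak format. Each deposited row gives a fold enrichment (a ratio at the summit), a −log10 p-value and a −log10 q-value, a score and positions, made by the authors. The deposited score equalled 10 times the −log10 q, rounded down, in 100% of proliferation, 99.94% of 36 h and 99.99% of 72 h rows, and it was not analysed. The smallest deposited −log10 q was 1.32, 1.32 and 1.30. The inputs had no file used here, and p-values across libraries were not computed, since 1 library per stage leaves no replicate error.

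Peaks were merged at 1 bp of overlap. The ChIP pileup and local background at each summit were recovered from the fold, (pileup + 1) / (background + 1), and the Poisson p-value. Each library had 1 scale factor (0.673, 0.698 and 0.657) that turned whole fragments into pileup. For 100% of peaks per library, the recovery gave back the deposited p to within 0.0003 of its value, and it was tested on simulated data. The lowest background common to many peaks, 1.01, 1.25 and 1.08 fragments, was taken as the genome background. The strongest peak of a region is that with the highest −log10 q. Shares have 95% Wilson intervals and fragment ratios 95% exact binomial intervals, which cover counting error only, since pooled ChIP fragments are not independent cultures. Python 3.11.15, numpy 2.4.6, pandas 2.3.3 and scipy 1.17.1 were used.

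Regions named in the text, with chromosome 18 left out, were the 5 members with the highest 36 h fold and the 5 with the most bp at 36 h. To these were added the 3 single-peak members of most even width, the 3 highest and 3 lowest at 36 h against the mean of the other stages, and the regions nearest each limit, the last 2 kinds with at least 1000 bp in proliferation. Members and rules were chosen with earlier results of these data known. Alternatives were a stricter q, 50% overlap, merging across 1 kb, lists of equal number, limits of 1.5 times, the strongest peak only, the strongest peak by fold, and 2 other scalings of the signal. No genome or annotation of mm9 was used here, so genes, promoters, cell type markers and sequences of the regions were not analysed here.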

Additional observations from a re-analysis of the deposited data

Results flagged for a closer look

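The median summit signal of members lay on opposite sides of proliferation at the 2 later stages. Relative to proliferation it was 0.945 at 36 h and 1.06 at 72 h. The difference between these values was not tested, since each stage had 1 library and both ratios share the proliferation library. The 36 h value depends on the scaling: it was 1.13 times with unscaled fragments.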

How the results depend on the processing

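All 3 lists come from 1 library each, so no culture-to-culture error stands behind any value. No paired analysis was possible because each stage had 1 H3K27ac library. The alternatives that need promoters, genes or sequence of mm9 were not run. Requiring a −log10 q of at least 5 gave 76.8% of shared regions as members, of which 60.3% had 1 peak per list and 87.8% a 36 h width within the limits of both other stages. It gave median widths of 1.16 (36 h to proliferation) and 1.01 (72 h to 36 h), summit distances of 63 and 53 bp and a 36 h signal of 0.969. An overlap of 50% of the shorter peak gave 55.5% with 1 peak per list. Merging across 1 kb gave 13882 members, 66.6% of shared regions, with 13.3%, 80.4%, widths of 1.17 and 1.01, distances of 89 and 69 bp and a 72 h to 36 h signal of 1.13. Lists of equal number (57101 peaks) gave 75.5%, 53.6%, 87.6%, widths of 1.15 and 1.01, distances of 65 and 54 bp and a 36 h signal of 1.001, on the other side of proliferation. Limits of 1.5 times gave 55.3% as members, 89.2% within the limits, widths of 1.08 and 1.01 and a 36 h signal of 0.917. The strongest peak alone gave 63.2%, 59.4%, 75.3%, widths of 1.14 and 1.01, distances of 64 and 56 bp and signals of 0.936 (36 h to proliferation) and 1.12 (72 h to 36 h). Taking the strongest peak by fold gave a distance of 71 bp between 36 h and proliferation. Unscaled fragments gave a 36 h to proliferation signal of 1.13, which reverses the direction, and a 72 h to 36 h signal of 1.05. Taking off the local background, chosen after seeing the data, gave 0.970. The causes of these shifts were not tested, apart from the fewer peaks that a stricter q and equal lists hold by construction. Members were covered again by members in 73.7% (stricter q), 98.1% (50% overlap), 86.3% (1 kb), 81.8% (equal number) and 73.7% (1.5 times) of cases. Fewer peaks at 36 h than in proliferation were more common than more peaks in all 6 ways of building regions, by 15.7% to 12.8% with the strongest peak alone and 32.2% to 27.4% with the 1 kb merge. Over the alternatives, 3.06% to 6.32% of members had a 36 h width at most 0.5 times both other widths. For at least 2 times both, the share ran from 0.992% to 4.74%, highest with the strongest peak alone.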
